A study of Mus musculus with 12 samples.

Results

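The genes described here encode the proteins of the cytosolic ribosome. They were chosen by symbol, Rpl, Rps or Rplp followed by a number with or without 1 of the letters a, x, l or y, together with Rpsa, and by a mean FPKM (fragments mapped to a gene, scaled by transcript length and by all mapped fragments of the sample) of at least 1 over the 12 samples. Of the 55401 genes in the tables, 83 carried such a symbol and 79 passed the minimum, 48 of the large and 31 of the small subunit. Rpl10l and Rpl39l were listed at 0 in every sample, and Rps4l and Rpl3l lay below the minimum with a mean FPKM of 0.0217 and 0.0808. The lowest genes above it were Rpl32l at 2.53 and Rpl21 at 12.4. Rpl32l and Rpl6l are typed as processed pseudogenes in the tables, and a few ribosomal proteins with other symbols (such as Rps3a1, Rpl36al, Fau and Rack1) fall outside the rule.

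Adult neural stem/progenitor cells (aNSPCs) came from the forebrain of C57BL/6 mice aged 8 to 10 weeks and were grown with EGF and FGF-2. RNA was sequenced under proliferating conditions or under differentiation conditions (retinoic acid at 1 µM with forskolin at 5 µM), in each case without NAD+ (Ctrl) or with 1 mM NAD+, with 3 samples in each of the 4 groups. A treatment field in the labels reads untreated for each of the 12 samples, but 6 titles name NAD+, and groups were taken from the titles. The study calls the 3 samples of a group biological repeats. The labels do not say whether they came from separate cultures or mice, and the p-values measure the spread between these samples. No genetic change is stated for any group. Depth is unknown, since the deposited values are FPKM rounded to 0.01, and the FPKM of a sample summed to between 308828 and 363330, the highest sum being that of proliferating Ctrl sample 1. Of 9 stem and progenitor markers, all had a mean FPKM of at least 1 in each group, with a sum from 1630 to 2898 under proliferating and from 792 to 880.2 under differentiation conditions. The 7 microglia markers summed to at most 0.44 and the 6 vascular markers to at most 1.45 in any sample. Mitochondrially encoded genes held 16.4% to 19.9% of the summed FPKM under proliferating and 28.9% to 33.2% under differentiation conditions.

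A ribosome is built from a small subunit, which reads the mRNA, and a large subunit, which joins the amino acids, and nearly every protein is present once per ribosome. Ribosomal protein genes are among the most highly expressed genes of dividing cells, and their mRNAs begin with a stretch of pyrimidines, the 5′ terminal oligopyrimidine (TOP) motif, through which mTORC1 signalling controls their translation. The level of these mRNAs usually follows growth and division. FPKM measures mRNA only, not translation or ribosome number.

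The members together made up a large part of the mRNA of proliferating aNSPCs and a smaller part of that of differentiating cells. Of the summed FPKM, they held 4.87%, 4.56% and 4.63% in the 3 proliferating Ctrl samples. With NAD+ the shares were 4.72%, 5.13% and 5.09%, which overlapped with Ctrl. Under differentiation conditions the members held 2.08%, 2.21% and 2.04% in Ctrl, and 1.75%, 1.94% and 1.73% in the NAD+ group. All 6 differentiating samples thus lay below all 6 proliferating samples, and the 3 differentiating NAD+ samples lay below the 3 differentiating Ctrl samples. Taken as a share of the sum without mitochondrially encoded genes, differentiating Ctrl samples held 2.87% to 3.14% and differentiating NAD+ samples 2.52% to 2.75%, again without overlap. The summed FPKM of the large subunit members was 1.57 to 1.66 times that of the small subunit members in every sample.

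**Figure D1:**
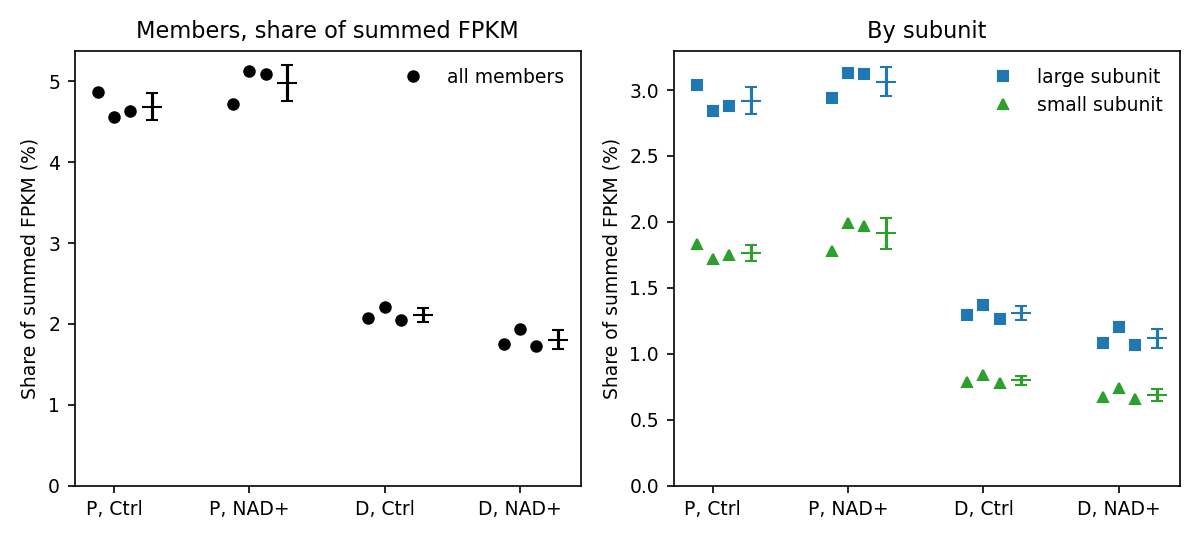
Share of the summed FPKM (%, vertical axes from 0) held by the 79 members (left) and by the 48 large and 31 small subunit members (right) in each sample, by group (P, proliferating; D, differentiation). Points are samples and the bars to their right give the mean ± SD (n = 3): proliferating samples lie between 4.56% and 5.13%, differentiating samples between 1.73% and 2.21%.

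The level of single members ranged widely. Rplp1, a protein of the acidic stalk that recruits elongation factors to the large subunit, was the highest, with an FPKM of 1343, 1038 and 1055 in proliferating Ctrl samples and 1220.1, 1291 and 1287 with NAD+. Under differentiation conditions its FPKM was 474, 502 and 472 in Ctrl and 426, 444 and 419 with NAD+. Rps15, on the head of the small subunit, followed with a mean FPKM of 488 over the 12 samples, and Rplp0, the base of the same stalk, with 444. Rplp2, which pairs with Rplp1 in the stalk, had a mean FPKM of only 93.6 and rank 44. The 3 highest members (Rplp1, Rps15 and Rplp0) held 16.0% of the members' FPKM, the 10 highest 34.7% and the 20 highest 54.6%. The 3 lowest were Rpl32l, Rpl21 and Rpl6l (2.53, 12.4 and 25.6). FPKM is scaled by transcript length. The study reports using only uniquely mapped reads, but not how the FPKM values were made. How reads shared by a gene and a near-identical copy entered its FPKM is therefore unknown.

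Copies were common. The tables hold 319 rows of ribosomal protein pseudogenes (symbols ending in -ps), 115 of them with a mean FPKM of at least 1, and 61 members had at least 1 such row. For 13 members the named pseudogenes summed to a higher FPKM than the member itself. In the Rpl21 family 94.2% of the FPKM was placed on pseudogenes, most of it on Rpl21-ps15, with a mean FPKM of 176 against 12.4 for Rpl21. In the families of Rpl17, Rps12 and Rps10 the share on pseudogenes was 88.8%, 83.7% and 75.8%. Reads of these genes and of their copies cannot be told apart in the FPKM tables, and the levels of these members are uncertain.

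The members' median coefficient of variation among the 3 samples of a group was 12.7% in proliferating Ctrl, 5.12% in proliferating NAD+, 5.49% in differentiating Ctrl and 6.82% in differentiating NAD+ samples. For the 4379 genes whose mean FPKM reached 10 it was 10.2%, 6.69%, 5.31% and 6.63% in the same order. A few members varied far more than the rest. Rpl29, a large subunit protein that also binds heparin, had an FPKM of 124.5, 95.9 and 95.6 in proliferating Ctrl samples and of 89.5, 8.23 and 89.5 with NAD+. Under differentiation conditions it was at 33.1, 51.8 and 1.81 in Ctrl and at 37.0, 35.1 and 33.5 with NAD+. A single sample in each of 2 groups was therefore more than 10 times below its neighbours, and no Rpl29 value that involves these groups is read as a change. Rps27a, which is made as a fusion with ubiquitin, ranged from 27.8 to 55.8 in differentiating Ctrl samples, while its copy Rps27a-ps2 ranged from 166 to 52.7 over the same samples, high where Rps27a was low. Across the 12 samples the median correlation between 2 members on the log2 scale was r = 0.98, and within groups (deviations from the group mean) it was 0.68. These correlations share the scaling of each sample. Rpl29 (0.456), Rpl17 (0.779) and Rps10 (0.799) followed the median of the other members least.

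Differentiation conditions were compared with proliferating conditions first, since this was the largest difference among the groups. Every gene entered limma as log2(FPKM + 0.1), which makes differences between low values look smaller than they are, and was called at a Benjamini-Hochberg adjusted p-value under 0.05 over all 19498 tested genes. Without NAD+, 77 of the 79 members were lower under differentiation conditions and 0 were higher. Of all tested genes, 31.6% were called lower and 25% higher. Of the 4379 genes whose mean FPKM reached 10, 2531 were called lower and 878 higher. Rpl29 (limma adjusted p = 0.0562) and Rpl17 (0.0875) were not called. The members' median log2 fold change was -1.14, against -0.06 for all tested genes and -0.45 for the 4379 genes whose mean FPKM reached 10. The median was -1.12 for the large and -1.17 for the small subunit. With NAD+ the means come from other samples, but the spread was estimated from all 12 samples in the same fit. Here 77 members were again lower and 0 higher. Of all genes, 37.6% were called lower and 20.8% higher, and of the 4379 genes 2742 were lower and 806 higher. The members' median was -1.29 against -0.20 for all genes, and Rps10 (limma adjusted p = 0.0561) and Rpl29 (0.894) were not called. Median-ratio scaling moved the median of all genes without NAD+ from -0.06 to 0.14, and that of the members to -0.92.

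Over the same samples the 14 dividing-cell genes fell further, with a summed FPKM of 369 to 459 in proliferating and 38.6 to 41.0 in differentiating Ctrl samples. Of the 8 astrocyte markers, 5 rose and 2 fell, and their summed FPKM was 1117 to 1196 in proliferating and 1644 to 1766 in differentiating Ctrl samples. Without Gfap, which was at 17.5 to 20.2 and 546 to 642, the sum of the other 7 was 1099 to 1175 and 1046 to 1169, which overlap. The part of these shifts in the lower levels of the ribosomal protein genes was not tested, and in bulk RNA fewer cells of a type and less mRNA per cell cannot be told apart. The medium differs together with the condition, and their effects cannot be told apart.

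The fall was not equal for all members. Rpsa, a small subunit protein that is also known as the precursor of the laminin receptor, fell the most among the members with steady values. Its FPKM was 323, 280.3 and 275 in proliferating Ctrl and 75.7, 83.2 and 75.8 in differentiating Ctrl samples. With NAD+ it was 298, 316 and 316 under proliferating and 61.5, 71.5 and 61.6 under differentiation conditions. The 2 conditions were far apart, with a log2 fold change of -1.90 (SE 0.08, limma adjusted p = 2.43e-08) without and -2.26 (SE 0.08, adjusted p = 6.12e-09) with NAD+. Rps2, which lies near the mRNA entry of the small subunit, followed with -1.87 and -2.05, and Rps12 with -1.68 and -2.03. Rpl27a fell by 1.64 and 1.73 on the log2 scale.

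At the other end, Rpl22, an RNA-binding protein at the surface of the large subunit, had an FPKM of 88.8, 65.3 and 67.7 in proliferating and 50.7, 54.4 and 52.2 in differentiating Ctrl samples. Its log2 fold change was -0.48 (SE 0.12, limma adjusted p = 0.00636) without NAD+ and -0.83 (SE 0.12, adjusted p = 0.000153) with NAD+, and under quantile normalization it was 0.02 without NAD+ (adjusted p = 0.908), so that its fall does not hold under that scaling. Rpl34 (-0.68), Rpl18 (-0.72) and Rps15 (-0.75) also fell little without NAD+. The 95% interval of the log2 fold change lay wholly below the members' median for 11 members and wholly above it for 13 without NAD+, and for 15 and 14 with NAD+. Of the 10 members with the largest fall, 6 were shared between the comparisons without and with NAD+ (Rpl14, Rpl27a, Rpl35, Rps12, Rps2 and Rpsa), and of the 10 with the smallest fall, 7 (Rpl10a, Rpl18, Rpl22, Rpl34, Rpl38, Rps15 and Rps21). Over the 79 members the 2 sets of log2 fold changes correlated at r = 0.36 (Spearman's rho 0.72), or at r = 0.82 (rho 0.78) over the 78 members without Rpl29. Genes are not independent replicates, and this correlation is across genes. The order of the levels was nearly the same in proliferating and differentiating Ctrl samples (rho = 0.97), and the change was hardly related to the level (rho = -0.14).

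**Figure D2:**
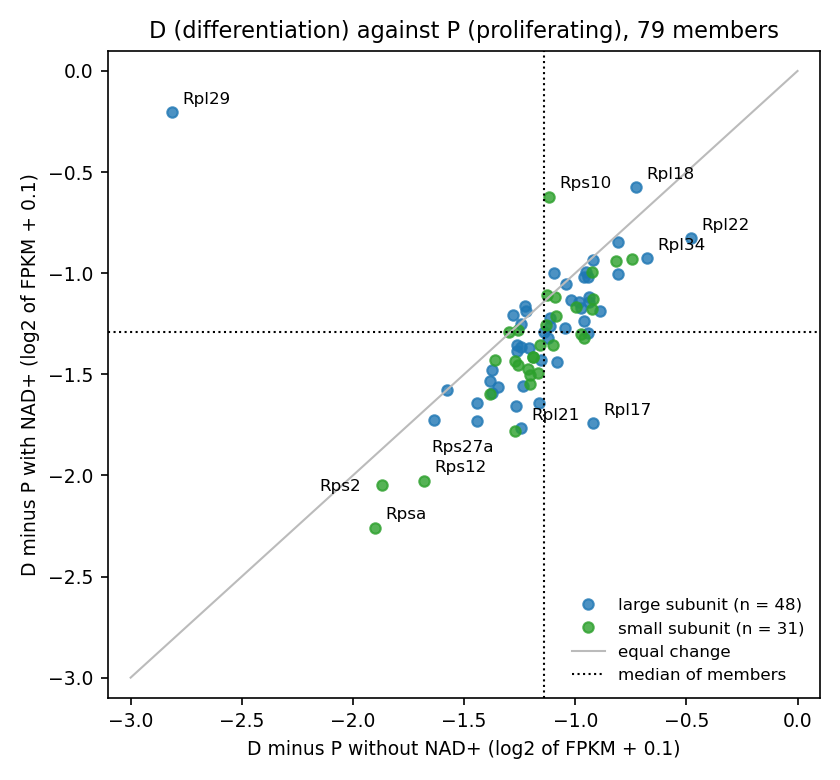
Log2 fold change (log2 of FPKM + 0.1) of each member under differentiation (D) against proliferating (P) conditions without NAD+ (horizontal) and with NAD+ (vertical), large subunit in blue and small subunit in green, with the line of equal change and dotted lines at the members' medians of -1.14 and -1.29. All 79 points lie below 0 on both axes, Rpsa, Rps2 and Rps12 at the lower left and Rpl22, Rpl18 and Rpl34 at the upper right, while Rpl29, which has 2 low samples, stands far off the line.

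By role, the 3 stalk proteins fell by similar amounts, as the log2 fold change without NAD+ was -1.25 for Rplp0, -1.24 for Rplp1 and -1.26 for Rplp2, each with an SE of 0.09 to 0.10. Rpl5, Rpl11 and Rpl23, which bind the p53 regulator MDM2 when they are free of the ribosome, fell by 0.81, 1.22 and 0.96 on the log2 scale. Rps6, the substrate of the S6 kinases, was at 318, 238 and 254 in proliferating and at 118, 132 and 124 in differentiating Ctrl samples, a change of -1.10 (SE 0.10, limma adjusted p = 3.88e-06). Of the 4 members on the X chromosome, Rps4x, Rpl39 and Rpl36a fell by 1.26, 1.26 and 1.12 and Rpl10, which joins the large subunit late in its assembly, by 0.89. Rpl3, near the catalytic centre of the large subunit, fell by 1.02, and Rps27l, a paralog of Rps27 that p53 can induce, by 1.19. Rps27a had a log2 fold change of -1.27 (SE 0.31, adjusted p = 0.00433), with the spread between samples described above.

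The promoters of the members that fell most and least, and of those called in the NAD+ comparison below, are shown because the start of the mRNA carries the TOP motif that these genes are known for. The RefSeq promoter table (GRCm38.p6, 250 bases before to 50 after each start) held 58 of the 79 members, with 69 starts. Each line gives the 15 bases before and the 15 from the annotated start, read along the transcribed strand, with the longest run of C and T (the first of equal runs) in capitals. Rpl22 and Rpl34 have 2 starts each, of which the one nearest to the 5′ end of the gene in GENCODE M21 is shown. The RefSeq start lay within 77 bases of that end except for Rpl35, Rps2 and Rpl18, where it lay 493, 1947 and 2614 bases inside the gene. The members with the largest fall without NAD+ come first.

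Rpsa (chr9:120127751-120127780, +): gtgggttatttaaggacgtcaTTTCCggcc
Rps2 (chr17:24720048-24720077, +): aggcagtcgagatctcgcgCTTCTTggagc
Rps12 (chr10:23787195-23787224, -): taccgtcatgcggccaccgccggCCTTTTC
Rpl27a (chr7:109519180-109519209, +): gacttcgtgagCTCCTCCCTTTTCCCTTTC

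The members with the smallest fall follow.

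Rpl22 (chr4:152325711-152325740, +): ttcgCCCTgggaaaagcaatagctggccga
Rpl34 (chr3:130730384-130730413, -): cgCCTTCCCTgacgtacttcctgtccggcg
Rpl18 (chr7:45718056-45718085, +): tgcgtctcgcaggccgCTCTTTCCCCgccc
Rps15 (chr10:80292416-80292445, +): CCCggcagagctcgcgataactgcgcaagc

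Of the 4 members called lower with NAD+ under differentiation conditions, 3 were in the table.

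Rpl35 (chr2:39005117-39005146, -): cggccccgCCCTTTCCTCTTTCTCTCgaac
Rpl37 (chr15:5116598-5116627, +): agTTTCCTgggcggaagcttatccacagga
Rpl24 (chr16:55966260-55966289, +): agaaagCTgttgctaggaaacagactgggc

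Within the bases shown, the longest runs were those of Rpl27a, Rpl35 and Rpl18, with 19, 18 and 10 bases, and Rpl34 had 1 of 8 bases. The capitals of Rpl27a, Rps12 and Rps15 reach an end of the bases shown, so those runs may be longer. Within 40 bases on either side of any of a gene's starts, a run of at least 8 C or T on the transcribed strand was found for 46 of the 58 members (79.3%), against 32.6% of the 27025 genes in the table. CTCTTTC, a common form of the TOP motif that overlaps such runs, was found on either strand of the 300 bases for 17 members (29.3%, against 9.28% of all genes). CCGGAAG, the core of many ETS factor sites, was found for 24 (41.4% against 9.93%), and AAGATGGC, the core of the YY1 site, for 5 (8.62% against 3.19%), both strands searched. The median log2 fold change without NAD+ was -1.12 for the 46 members with a run, -1.22 for the 12 without and -1.16 for the 21 not in the table. A match is a description of these letters only, and the start used in these cells may differ from the annotated one.

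Under proliferating conditions the differences between NAD+ and Ctrl lay on both sides of 0, and no member was called. Of the 79 members, 41 had a positive and 38 a negative log2 fold change of NAD+ against Ctrl, where 11104 and 7492 of all tested genes did. The median was 0.01, against 0.07 for all 18597 tested genes, and its sign depended on the scaling, with -0.06 under median-ratio scaling and 0.10 under quantile normalization. By the limma adjusted p-value 0 members were called, where 0.145% of all genes were, and 3 had an unadjusted p-value under 0.05 (Rps12, Rpl32l and Rpl18), where 15.4% of all genes had. The rule of the study, an unadjusted p-value under 0.05 and mean FPKM values more than 2-fold apart, was applied here with limma p-values. It also called 0 members, where it called 3.01% of all genes. The authors' own p-values were not used, so shares under this rule are not those of the study. The 3 NAD+ samples lay above the 3 Ctrl samples for 3 members (Rpl4, Rps12 and Rpl32l; 15.5% of all genes) and below them for 5 (Rpl29, Rpl23a, Rpl18, Rpl3 and Rps28; 8.59% of all genes). In an exact two-sided permutation test of FPKM these 8 members had p = 0.1, the smallest that 3 samples against 3 allow. The highest log2 fold changes were those of Rpl17 (0.44, SE 0.46), Rps27a (0.36, SE 0.25) and Rps12 (0.34, SE 0.11, limma adjusted p = 0.243), and the lowest those of Rpl29 (-1.37, SE 0.89), Rps10 (-0.50, SE 0.26) and Rpl18 (-0.26, SE 0.11, adjusted p = 0.323). Rps12 was at 85.9, 68.3 and 69.5 in Ctrl and at 87.4, 96.3 and 98.1 with NAD+, so the groups did not overlap, although the highest Ctrl and the lowest NAD+ value differed by little. Proliferating Ctrl sample 1, which had the highest sum of FPKM, was also the highest of its group for Rplp1, Rplp0, Rps6 and Rpsa. Without it the members' median was 0.11, against 0.05 for all genes. Again 0 members were called, where 14 of 18590 genes were called higher and 22 lower.

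Under differentiation conditions the levels of most members were slightly lower with NAD+. Of the 79 log2 fold changes 72 were negative and 7 positive, with a median of -0.17 against -0.08 for all 19611 tested genes and also for those whose mean FPKM reached 10. Of all tested genes 12119 were negative, and of the 4378 genes whose mean FPKM reached 10, 2840 were. Members varied together within groups, so their signs are not separate observations. The limma adjusted p-value called 4 members, all lower, among them Rpl24, Rpl35 and Rpl37, where 4.65% of all genes were called lower. Before adjustment 37 members had a p-value under 0.05, all lower (16.7% of all genes were lower by that measure), and the rule of the study called 0, where it called 4.05% of all genes. The 3 NAD+ samples lay below the 3 Ctrl samples for 41 members, where this held for 21.1% of all genes. They lay above them for 0 members, where this held for 9.68% of all genes. The median ratio of the mean FPKM, NAD+ to Ctrl, was 0.891, so that the differences were small. The share of members called is thus near that of all genes, while the shares that did not overlap or had a small unadjusted p-value were higher. Of the 4378 genes whose mean FPKM reached 10, 396 were called lower, 1179 were lower before adjustment and 1348 lay below without overlap. Against these genes the share of members called was smaller, and the other shares were still higher, but by less.

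Rpl24, which lies at the interface of the subunits, had an FPKM of 164, 177 and 166 in Ctrl and of 142, 146 and 132 with NAD+, a log2 fold change of -0.27 (SE 0.06, limma adjusted p = 0.0427). Rpl35, near the exit of the peptide tunnel, was at 77.7, 82.4 and 80.6 in Ctrl and at 67.1, 70.4 and 65.6 with NAD+ (-0.24, SE 0.05, adjusted p = 0.035). In both genes the groups were separate but close. Rpl37 had an FPKM of 54.6, 52.8 and 51.8 in Ctrl and of 46.6, 45.7 and 43.4 with NAD+ (-0.23, SE 0.05, adjusted p = 0.0413). Larger but less certain differences were those of Rpl41, the shortest ribosomal protein (-0.62, SE 0.32, adjusted p = 0.298), and Rps26, which touches the mRNA on its way out of the ribosome (-0.46, SE 0.10, adjusted p = 0.051). Rpl17 had -0.39 (SE 0.29). The highest values were those of Rpl29 (1.25, SE 1.17), Rpl32l (0.34, SE 0.23) and Rpl7a (0.12, SE 0.07), with adjusted p-values of 0.569, 0.426 and 0.355.

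Among the members named by role, the log2 fold change of NAD+ was -0.12 for Rplp0, -0.17 for Rplp1 and -0.12 for Rplp2. It was -0.15 for Rpl5, 0.01 for Rpl11 and -0.15 for Rpl23. Rpsa, the member with the largest steady fall between the conditions, had -0.27, with FPKM values of 75.7, 83.2 and 75.8 in Ctrl and of 61.5, 71.5 and 61.6 with NAD+, which did not overlap. Rpl3, Rpl22, Rps27l and Rps27a had -0.24, -0.18, -0.15 and -0.15, and the X-linked Rpl39, Rpl36a and Rps4x -0.11, -0.10 and -0.07. The limma adjusted p-values of all of these lay between 0.0896 (Rpsa) and 0.954 (Rpl11). Rps6 and Rpl10 both had -0.21, with adjusted p-values of 0.085 and 0.0743.

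**Figure D3:**
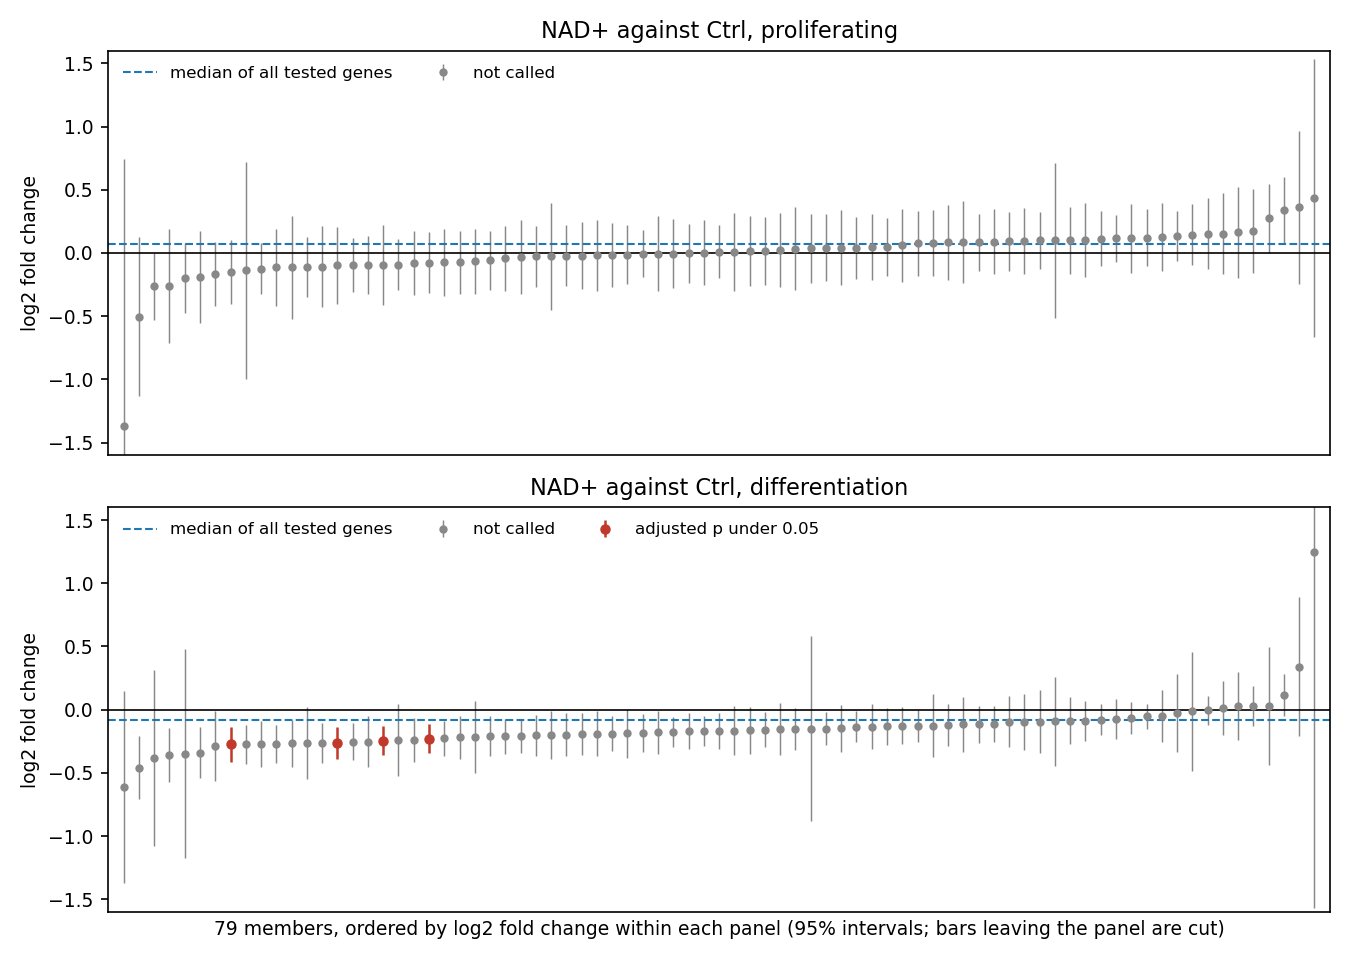
Log2 fold change of NAD+ against Ctrl (log2 of FPKM + 0.1) for the 79 members under proliferating (top) and differentiation conditions (bottom), ordered by value within each panel, with 95% intervals and the median of all tested genes as a dashed line. Under proliferating conditions the points lie on both sides of 0. Under differentiation conditions 72 of 79 lie below 0, where 12119 of all 19611 tested genes do, and the 4 called members are in red.

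The calls under differentiation conditions were fragile. Rpl24, Rpl35 and Rpl37 were all lost when any 1 of the 6 samples was left out. Under median-ratio scaling 0 members were called, where 562 of 19568 genes were called lower, and the members' median was -0.09, against -0.02 for all genes. The direction of the median was negative under every scaling tried. Over the same samples, mitochondrially encoded genes held 28.9% to 29.8% of the summed FPKM in Ctrl and 29.5% to 33.2% with NAD+. Of the 8 astrocyte markers, 3 rose (Gfap, Slc1a3 and Slc1a2) and 2 fell (Aldh1l1 and Aldoc) with NAD+, with a median log2 fold change of -0.07. Their summed FPKM was 1644 to 1766 in Ctrl and 1996 to 2108 with NAD+, and without Gfap 1046 to 1169 and 1029 to 1109.8. The part of these shifts in the lower ribosomal protein levels was not tested.

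Whether NAD+ acted differently under the 2 conditions was tested as a contrast of all 12 samples (the effect under differentiation less that under proliferating conditions). None of the 79 members had a limma adjusted p-value under 0.05, where 0.467% of all genes had, and 13 had an unadjusted p-value under 0.05, all with the lower value under differentiation conditions, where 12.2% of all genes had. The median difference was -0.18, against -0.16 for all genes, and how far it lay from that of all genes depended on the scaling. Under median-ratio scaling it was -0.02 against 0.00, and under quantile normalization -0.22 against -0.01. The lowest values were those of Rpl17 (-0.82, SE 0.60), Rpl21 (-0.52, SE 0.40) and Rps27a (-0.51, SE 0.43), and the highest those of Rpl29 (2.61, SE 1.62), Rps10 (0.49, SE 0.36) and Rpl18 (0.15, SE 0.13). Without proliferating Ctrl sample 1, 3 members were called lower (Rplp1, Rps12 and Rps23), where 123 of 19537 genes were. The members' median was then -0.27 against -0.13 for all genes.

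**Figure D4:**
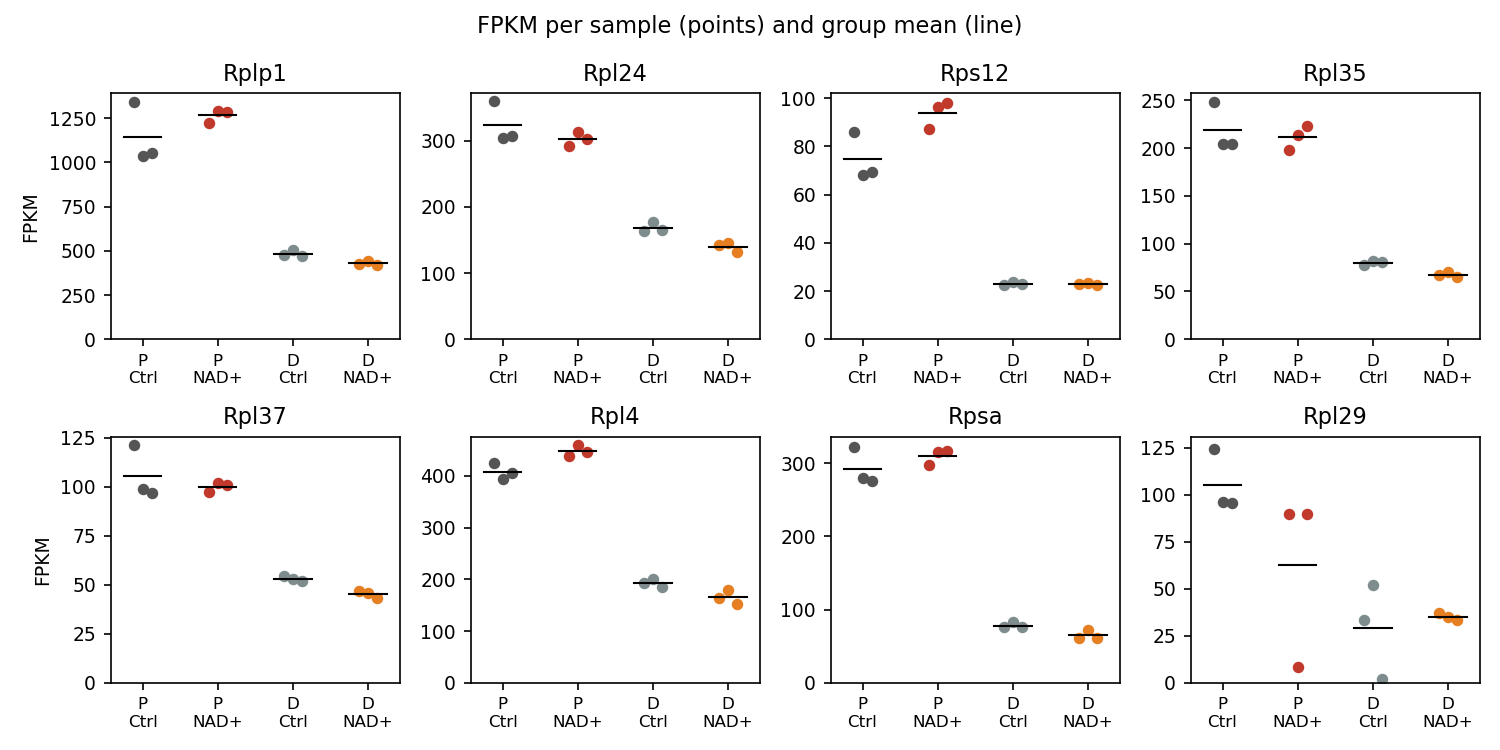
FPKM (vertical axes from 0) of 8 members in each sample, points for samples and a line for the group mean (n = 3), for proliferating (P) and differentiation (D) conditions without (Ctrl) and with NAD+. In 7 of them all samples under differentiation conditions lie below all samples under proliferating conditions, and Rpl29 has 1 low sample in each of 2 groups.

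The other genes of the pathway were taken from lists drawn up by function. Fau, which encodes a ribosomal protein fused to a ubiquitin-like protein, and Rack1, a scaffold on the small subunit, were called lower under differentiation conditions without NAD+ (log2 fold changes of -1.14 and -1.03), a change of the size seen in the members. Of 5 other tested genes outside the rule, 4 were lower. These were the paralogs Rpl36al, Rpl7l1 and Rpl22l1 and the ribosomal protein gene Rps3a1, with -1.36, -1.30, -1.12 and -1.11. Rpl22l1, which can replace Rpl22 in the ribosome, thus fell by 1.12 where Rpl22 fell by 0.48 on the log2 scale. Of 172 tested pseudogene rows, 96 were lower and 3 higher, with a median of -1.03.

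Of 16 translation factors and other genes whose mRNAs carry the TOP motif, 15 were lower and 0 higher, with a median of -0.90, the largest falls being in Hnrnpa1 (-1.33), Nap1l1 (-1.24) and Eef1a1 (-1.21), the factor that brings tRNA to the ribosome. Of 30 initiation factors, 22 were lower, led by Eif2s1 (-1.35), Eif3i (-1.21) and Eif4a1 (-1.14), and 1 was higher, Eif4a2 (0.39, limma adjusted p = 0.00541), the paralog of Eif4a1. Of 56 genes of ribosome biogenesis, 36 were lower and 2 higher, with a median of -0.53. The largest falls were in Bysl, Nhp2 and Fbl (-1.43, -1.33 and -1.32), which act on pre-rRNA, and the genes that rose were Gnl2 (0.65) and Taf1d (0.39). Of 83 mitochondrial ribosomal protein genes, 74 were lower and 0 higher, with a median of -0.86. Among 25 regulators of mTORC1, S6K and MYC signalling, 10 were lower, among them Rps6ka1 (-1.95), Mycn (-1.51) and Eif4ebp1 (-1.40), and 3 were higher, Tsc1 (0.80), an inhibitor of mTORC1, Mycl (0.80) and Rps6kb2 (0.45). The FPKM of Mycn was very low, at 0.37, 0.31 and 0.44 in proliferating and 0.07, 0.01 and 0.14 in differentiating Ctrl samples, so its change is uncertain. The ribosomal protein genes thus had the lowest median of the lists plotted with them, and no test compared the lists.

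With NAD+ under differentiation conditions, 4 of the 16 genes with TOP mRNAs were lower and 0 higher (Naca, Btf3, Npm1 and Hnrnpa1, with log2 fold changes of -0.42, -0.38, -0.28 and -0.28). Of the initiation factors 6 were lower, led by Eif2s2 (-0.47), Eif2b4 (-0.34) and Eif3d (-0.34), and of the biogenesis genes 7, led by Ddx10 (-0.54), Bysl (-0.50) and Grwd1 (-0.40), in both lists with 0 higher. The biogenesis genes had a median of -0.23, below the members' -0.17. Of the regulators, Mycl was lower (-0.98), and Deptor (0.78), an inhibitor of mTOR, and Eif4ebp2 (0.22), an inhibitor of Eif4e, were higher. The FPKM of Deptor was low, at 0.49, 0.45 and 0.42 in Ctrl and 0.81, 0.83 and 0.9 with NAD+. The 83 mitochondrial ribosomal protein genes had a median of -0.09, with 3 called lower and 0 higher. Under proliferating conditions limma called 0 genes of these lists, with an unadjusted p-value under 0.05 in 1 gene with a TOP mRNA, 0 initiation factors, 4 regulators and 5 mitochondrial ribosomal protein genes. The biogenesis genes had a median of 0.18 with 47 of 56 values positive and 2 at an unadjusted p-value under 0.05, where the members stood at 0.01.

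**Figure D5:**
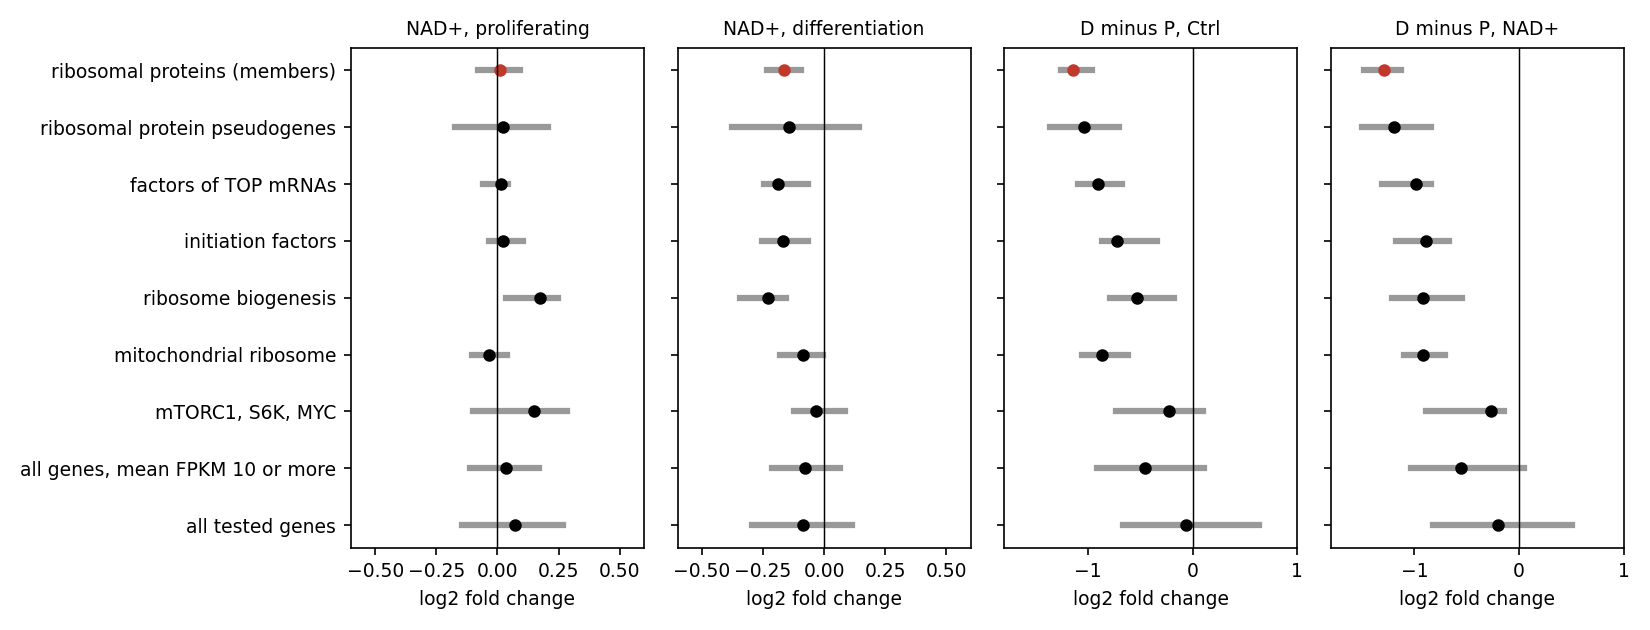
Median (point) and quartiles (bar) of the log2 fold change (log2 of FPKM + 0.1) of the members (red), of the other lists and of all genes, for NAD+ against Ctrl under each condition (left panels) and for differentiation (D) against proliferating (P) conditions (right panels; the horizontal scale differs). The members lie near 0 under proliferating conditions, at -0.17 with NAD+ under differentiation conditions, and at -1.14 and -1.29 between the conditions.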

How the data were processed

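RNA from 12 samples of aNSPCs (4 groups of 3) was analysed. The authors mapped reads to mm10 with Hisat2 2.0.5, kept uniquely mapped reads, counted them per gene with FeatureCounts 2.0.1 and deposited FPKM values rounded to 0.01, in a table for each condition. The program that made the FPKM values is not given in the sources used here. The deposited tables also hold the authors' own comparison of NAD+ with Ctrl, as a fold ratio, its log2 value, and a p-value and q-value, none of which were used. Counts and depth are unknown, so no counting error is given.

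Samples were grouped by their titles. The members and gene lists were chosen with earlier results of these data known. Genes with a mean of at least 0.1 FPKM were tested as log2(FPKM + 0.1) with limma 3.58.1 (R 4.3.3, trended variance, Benjamini-Hochberg adjustment), the effect of NAD+ on the 6 samples of a condition, and the difference of these effects and the effect of differentiation on all 12. The 2 tables were taken to be on a common FPKM scale for contrasts across conditions. Single members were also tested by exact permutation. In data simulated for NAD+ against Ctrl, a change of 1 on the log2 scale was called in 74% of changed genes under differentiation and in 58% under proliferating conditions. Changes as small as those of most members with NAD+ were not simulated. Named members were those with set roles, the 3 highest and 3 lowest log2 fold changes of each contrast, the 3 called with the smallest p, the 3 highest and lowest levels, and up to 3 called genes of each list and direction. Single values of some genes are not reported here. Other genes named were chosen after their values were seen. Promoter sequences came from RefSeq (GRCm38.p6). Samples with the same replicate number deviated together only weakly (correlations of 0.0125 to 0.168 under proliferating and of 0.0195 to 0.0783 under differentiation conditions), and were not paired. Alternatives covered scaling, pseudocount, filter, variance model, replicate block and leaving out samples. Figures were drawn with matplotlib 3.10.9 in Python 3.11.15.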

Additional observations from a re-analysis of the deposited data

Results flagged for a closer look

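Rpl4, which lines the peptide tunnel of the large subunit, lay above the Ctrl range in the 3 NAD+ samples under proliferating conditions and below it in the 3 under differentiation conditions. Its FPKM was 425, 394 and 405 in proliferating Ctrl and 438, 460.0 and 447 in proliferating NAD+ samples. Under differentiation conditions it was 193, 200.2 and 185 in Ctrl and 165, 179.9 and 153 with NAD+. The difference of the NAD+ effects was -0.35 on the log2 scale (SE 0.10), with an unadjusted limma p of 0.0051 and an adjusted p of 0.146, so that it did not pass the threshold over all genes.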

How the results depend on the processing

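Under proliferating conditions 0 members were called by limma under every alternative. Under differentiation conditions the 4 calls with NAD+ became 0 with no filter on low values, with median-ratio scaling or with no variance trend, 10 with a minimum mean FPKM of 1, 15 with samples scaled to the same sum, 7 with that sum taken without mitochondrial genes, and 0 to 2 with 1 sample left out. Over all genes, the settings with 0 calls gave 647 of 29291, 562 of 19568 and 412 of 19611 called lower. The minimum of 1 gave 1075 of 12671, the same sum 1221 of 19598, and that sum without mitochondrial genes 1004 of 19596. With the replicate block 2 members were called (Rpl27 and Rps26), where 483 of 19611 genes were called lower. The numbers did not pair the samples, and the block gave 0 calls under proliferating conditions and for the difference of the NAD+ effects. Between the conditions it gave 77 and 78 without and with NAD+, where 6103 and 7246 of 19498 genes were called lower. The adjusted p over the alternatives ranged from 0.023 to 0.132 for Rpl24, 0.0264 to 0.133 for Rpl35 and 0.0269 to 0.147 for Rpl37.

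For the difference of the NAD+ effects, quantile normalization called 1 member lower (Rplp1), where 28 of 19498 genes were. Leaving out 1 sample called 0 to 3 members, and the members' median was -0.017 with median-ratio and -0.32 with same-sum scaling. Without NAD+, the median between the conditions was -0.92 with median-ratio scaling, -0.69 with quantile normalization and -0.93 with the same sum without mitochondrial genes, and with NAD+ it was -0.91, -0.87 and -1.15, and -1.42 with the same sum. The rule of the study called 0 to 1 members in each condition with 1 sample left out, 1 without proliferating Ctrl replicate 3 and 1 without differentiating Ctrl replicate 3. Rpl22 without NAD+ had 0.016 under quantile normalization. The cause of these shifts was not tested.

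Without mitochondrially encoded genes, the mean share of the members was 5.75%, 6.02%, 2.98% and 2.63% in proliferating Ctrl, proliferating NAD+, differentiating Ctrl and differentiating NAD+ samples. With named pseudogenes added it was 5.90%, 6.30%, 2.65% and 2.28%. Adding pseudogenes was chosen after seeing the data, as was leaving out samples for the shares. Alternatives to the rule of the study were also chosen then, except those that changed the filter on low values, which were planned. Depth is unknown, and 3 samples a group limit the precision.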
